A study of Mus musculus with 12 samples.

Results

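Cytokine receptors that lack an enzyme of their own signal through JAK kinases, which sit on the inner tails of the receptor chains and phosphorylate both the receptor and the STAT transcription factors that dock on it. The SOCS family of inhibitors closes a feedback loop on this route: STAT factors switch on Cish, Socs1, Socs2 and Socs3, whose proteins bind JAK kinases or phosphorylated receptor chains, and the SOCS box that the family shares recruits a ubiquitin ligase built on cullin 5. In granulopoiesis, the formation of granulocytes in the bone marrow, the receptor of granulocyte colony-stimulating factor signals mainly through Jak1, Jak2 and Stat3, and Socs3 is known as its main feedback inhibitor.

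The genes described here were the SOCS inhibitors Socs1, Socs2, Socs3, Socs5 and Cish and the kinases Jak1, Jak2, Jak3 and Tyk2. They were chosen by name with no cutoff on their values, although earlier results of these data were known. Of these 9 genes, 8 were measured out of 19937 genes tested: the array row of Jak3, the kinase that pairs with the common gamma chain of interleukin receptors, also carried the name of the neighboring gene Insl3, so its signal cannot be given to Jak3 alone and no value is reported for it.

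The cells were sorted by fluorescence-activated cell sorting from the marrow of long bones and spine of C57BL/6 mice and received no treatment or expansion in culture. LSK cells are hemopoietic stem and progenitor cells that lack the lineage antigens B220, Ter119, CD3, Gr-1 and CD11b and carry Sca1 and cKit. Promyelocytes, myelocytes and granulocytes are consecutive stages of neutrophil maturation, sorted as negative for lymphoid lineage antigens and Sca1 with antibodies to Gr-1, cKit, CD34 and CD16/32. Total RNA of each population was hybridized to 3 Affymetrix Mouse Gene 1.0 ST arrays, 12 arrays in all. Arrays within a group are labeled as biological replicates, with no word on whether each had its own mouse, so the spread behind every p-value may be technical in part.

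Levels are given as log2 RMA values, in which 1 unit is a 2-fold difference. A level is compared only between stages of the same gene, because probe sets of different genes differ in brightness. Stage markers set promyelocytes and LSK cells apart from granulocytes. The mean of the promyelocyte markers Mpo, Elane, Prtn3, Ctsg and Prss57 was 11.1 to 11.5 in promyelocytes and 5.67 to 6.71 in granulocytes. The mean of 5 granulocyte markers was 12.1 to 12.3 in granulocytes, 11.3 to 11.5 in myelocytes and 6.37 to 6.61 in LSK cells. Myelocytes and granulocytes were less far apart. The mean of 5 myelocyte markers was 12.4 in myelocytes and 11.6 to 12.0 in granulocytes. Between these stages 3 of the 5 granulocyte markers and 4 of the 5 myelocyte markers did not pass both a 2-fold difference and an adjusted p under 0.05. LSK array 3 stood apart from the other LSK arrays, with a promyelocyte marker mean of 8.25 against 10.1 and 10.5 and an immediate early gene mean of 7.90 against 9.29 and 9.24. The mean of 6 basophil and mast cell markers differed among the myelocyte arrays, at 10.7, 9.33 and 7.93 for arrays 1 to 3, and among the promyelocyte arrays, at 9.16, 7.13 and 7.90, and lay between 4.58 and 6.03 in LSK cells and granulocytes. Eosinophil markers were at 7.75, 5.39 and 8.16 in promyelocytes and at 5.79 or below elsewhere.

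Promoters of 3 of the genes hold at least 1 of the short motifs named below, and these stretches are shown because they hold a match. The motifs are known as binding sites of transcription factors that answer to cytokines or other stimuli. An interferon response site was also searched at first and is not reported here. Sequences and coordinates are those of RefSeq on GRCm38.p6, read 5′ to 3′ on the strand of the gene, with the motif in capitals. Windows of 300 bases, from 250 before to 50 after the annotated start, were searched on both strands for the STAT site TTCNNNGAA, the cyclic AMP response site TGACGTCA and the AP-1 site TGANTCA. Positions are counted from the start that the promoter table gives, with negative numbers before it; it is base 107296659 for Cish, 117969366 for Socs3 and 101265223 for Jak1. The RefSeq gene record reaches farther upstream for the last 2 genes, to 117970336 for Socs3 and 101265282 for Jak1, so the Socs3 stretch lies within the span of that record. Cish holds 2 STAT sites, whose first bases lie at positions 1 and 12, on the plus strand of chr9:107296654-107296683. Socs3 holds 1 STAT site at position -154, on the minus strand of chr11:117969501-117969530. Jak1 holds 1 cyclic AMP response site at position -101, on the minus strand of chr4:101265297-101265344.
Cish: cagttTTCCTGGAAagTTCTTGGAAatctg
Socs3: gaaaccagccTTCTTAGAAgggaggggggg
Jak1: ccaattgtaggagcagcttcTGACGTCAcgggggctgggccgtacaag
Of 32851 promoters in the table, 8.3% hold the STAT site, 1.79% the cyclic AMP response site and 7.81% the AP-1 site. Of the 7 promoters of these genes that the table holds, Jak3 included, the counts were 2, 1 and 0 in the same order. A match is a run of letters in the promoter and not a measured binding event. Socs2 and Socs5 are not in the table.

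Among the 8 measured genes, 6 passed limma's F test across the 4 stages, with adjusted p under 0.05 (Socs2, Socs3, Socs5, Cish, Jak1 and Jak2), where 54.0% of all genes did so. The range from the lowest to the highest stage mean was at least 1 on the log2 scale for 5 of the 8 genes, against 33.5% of all genes. For a difference between 2 stages, a gene was called where it was at least 2-fold and limma's adjusted p lay under 0.05, and only such genes are said to have risen or fallen. From LSK cells to promyelocytes 3 of 8 fell (Socs2, Socs3 and Cish) and 0 rose, where 2.75% of all genes fell and 1.61% rose. From promyelocytes to myelocytes 1 rose (Jak1) and 0 fell, against 7.61% and 9.87% of all genes. From myelocytes to granulocytes 1 rose (Socs3) and 0 fell, against 2.35% and 5.96%. Across the whole path, granulocytes against promyelocytes had 2 genes higher (Socs3 and Jak1) and 0 lower, against 10.1% and 16.3% of all genes, and granulocytes against LSK cells had 0 higher and 2 lower (Socs2 and Socs5), against 9.59% and 16.5%. In myelocytes against LSK cells 3 were lower (Socs2, Socs3 and Socs5) and 0 higher, against 10.8% and 7.74%. With no limit on the fold, 5, 5 and 2 of the 8 genes passed the adjusted p at the 3 consecutive steps, against 13.0%, 34.6% and 21.9% of all genes. The counts were 5 for myelocytes against LSK cells, 5 for granulocytes against promyelocytes and 6 for granulocytes against LSK cells, beside 36.4%, 49.8% and 51.9%. The arrays of the compared stages did not overlap for 6, 5 and 2 of the 8 genes at the consecutive steps, against 26.4%, 44.0% and 44.2% of all genes, and for 6, 5 and 6 in the other comparisons, against 47.3%, 57.2% and 62.0%. The 5 SOCS genes had a median log2 difference of -1.03 from LSK cells to promyelocytes, beside 0.04 over all genes. The 3 JAK genes had a median of -0.08, with Jak1 at -0.83, Jak2 at -0.08 and Tyk2 at 0.37. From promyelocytes to myelocytes the JAK genes had a median of 0.92 and the SOCS genes 0.14, beside 0.01 over all genes.

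**Figure D1:**
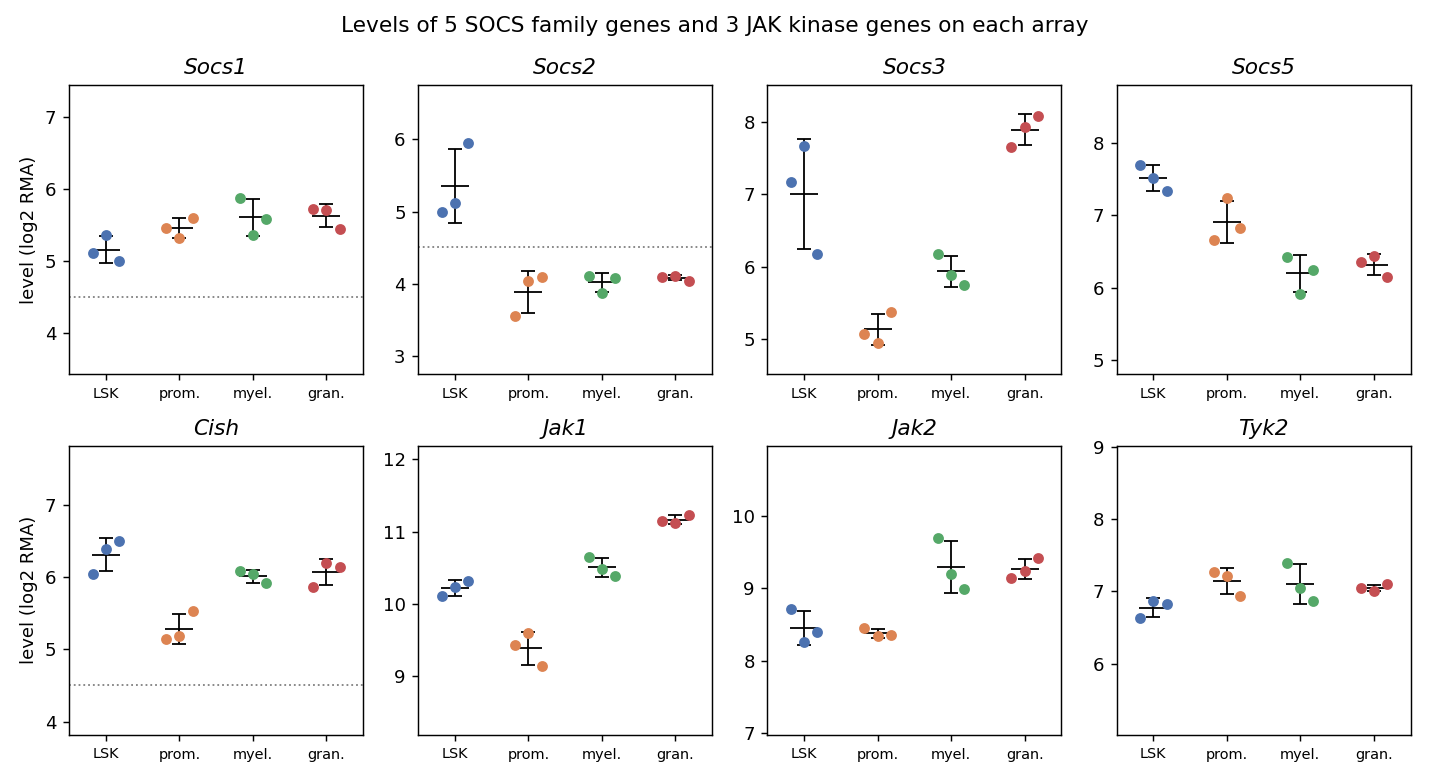
Each panel shows 1 gene, with the 4 stages on the x axis (prom., promyelocytes; myel., myelocytes; gran., granulocytes) and the log2 RMA level on the y axis; points are the 3 arrays of a stage in the order of their numbers, and bars give the mean ± SD. The axes of all panels span the same number of log2 units, and the dotted line is the level of dim signal, 4.51. Socs3, Cish and Jak1 have their lowest points in promyelocytes, Socs2 is above the dim level in LSK cells only, and Socs5 declines to myelocytes.

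Socs3, which blocks JAK activity at receptors that signal through gp130 and at the receptor of granulocyte colony-stimulating factor, had the widest range of the 8 genes, and a range wider than 93.3% of all genes. Its log2 level was 7.17, 7.66 and 6.17 on LSK arrays 1 to 3, 5.07, 4.95 and 5.37 in promyelocytes, 6.17, 5.89 and 5.74 in myelocytes, and 7.66, 7.94 and 8.08 in granulocytes. The course was thus a trough in promyelocytes, and the granulocyte arrays overlapped with LSK arrays only. The log2 level fell by 1.87 ± 0.28 (SE, n = 3 arrays a group) from LSK cells to promyelocytes, a 3.66-fold drop with an adjusted p of 0.000351 by limma. It rose by 1.96 ± 0.28 from myelocytes to granulocytes, 3.88-fold (limma adjusted p = 9.1e-05), and granulocytes were 6.78-fold above promyelocytes (limma adjusted p = 4.28e-07). The step from promyelocytes to myelocytes was a log2 difference of 0.80 ± 0.28, which passed the adjusted p (0.0336, limma) and not the 2-fold limit, although the arrays of those stages did not overlap. That pass was lost without promyelocyte array 1 or 2 or without myelocyte array 1 or 2, with limma adjusted p values of 0.0848, 0.110, 0.116 and 0.0683. In bulk RNA, fewer cells of a type that express a gene and less of its RNA per cell cannot be told apart.

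The LSK level of Socs3 had an SD of 0.76, the largest of any stage of any of the 8 genes, and array 3 was the low one. Without that array the log2 difference of promyelocytes from LSK cells was -2.29 ± 0.20, and the difference of granulocytes from LSK cells, 0.89 with all arrays (limma adjusted p = 0.0142), was 0.47 with an adjusted p of 0.0719. Without granulocyte array 3 it was 0.80 with a limma adjusted p of 0.0556. Other settings took the difference of granulocytes from LSK cells past 2-fold. It was 1.22 without LSK array 2, 1.005 without granulocyte array 1 and 1.10 with arrays centered on their 75th percentile. Leaving out promyelocyte array 1 or 3, those with the higher eosinophil markers, gave differences from LSK cells of -1.84 and -1.99. Myelocytes were below LSK cells by a log2 difference of -1.07 ± 0.28 (limma adjusted p = 0.00587), but the fold was under 2 without LSK array 1, without LSK array 2 and without myelocyte array 3, at log2 differences of -0.99, -0.74 and -0.97. A dimmer row on the array also carries the name Socs3, with mean log2 levels of 5.91, 5.17, 5.18 and 6.09 from LSK cells to granulocytes. Its steps were smaller: -0.75 to promyelocytes (limma adjusted p = 0.0438), 0.01 to myelocytes (limma adjusted p = 0.981) and 0.91 to granulocytes (limma adjusted p = 0.00927). Promyelocytes and myelocytes were thus level on that row. Its granulocytes were 0.17 above LSK cells (limma adjusted p = 0.532), and no comparison reached 2-fold on it.

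Cish, the founding member of the family, which docks on the receptor chains that recruit Stat5, had levels of 6.05, 6.39 and 6.50 in LSK cells, 5.14, 5.18 and 5.52 in promyelocytes, 6.09, 6.04 and 5.91 in myelocytes, and 5.86, 6.19 and 6.14 in granulocytes (log2). The promyelocyte arrays lay below all 9 arrays of the other stages. The log2 level fell by 1.03 ± 0.16 from LSK cells to promyelocytes, which is 2.04-fold (limma adjusted p = 0.0005) and just past the limit: in 6 of 22 alternative settings the fold was slightly under 2, the smallest log2 difference being -0.90, while the adjusted p stayed under 0.05 in those. Among them were the fits without LSK array 2 (-0.99), LSK array 3 (-0.94), promyelocyte array 1 (-0.96) and promyelocyte array 2 (-0.98). From promyelocytes to myelocytes the log2 difference was 0.73 ± 0.16 (1.66-fold, limma adjusted p = 0.00165). Myelocytes, granulocytes and LSK cells did not differ beyond their spread, with a log2 difference of 0.05 (95% interval -0.29 to 0.39) between granulocytes and myelocytes and of -0.25 (-0.59 to 0.10) between granulocytes and LSK cells.

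Socs2, known as the brake on growth hormone signaling, was above the level of dim signal in LSK cells only. That level, 4.51, is the 95th percentile of the means of 1194 olfactory and vomeronasal receptor genes, which were taken as not expressed in these cells. The LSK arrays gave log2 levels of 4.99, 5.12 and 5.94, with array 3 the highest, and the other 9 arrays lay between 3.56 and 4.11. The difference of promyelocytes from LSK cells was -1.46 ± 0.21 (2.75-fold lower, limma adjusted p = 0.000322), that of myelocytes -1.33 ± 0.21 and that of granulocytes -1.27 ± 0.21. Because the later stages were at the dim level, these folds are measured against background signal. Without LSK array 3 the differences were -1.17, -1.04 and -0.98, the last under 2-fold. The other row named Socs2 was dim in all 4 stages, with means of 4.42, 3.97, 4.25 and 4.29, and its difference from LSK cells to promyelocytes did not pass (-0.45, limma adjusted p = 0.0934), so the fall rests on 1 of the gene's 2 rows.

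Socs5, which has a long N-terminal part and is known to act on the interleukin 4 receptor and the epidermal growth factor receptor, declined with maturation up to the myelocyte stage. Its log2 levels were 7.69, 7.52 and 7.33 in LSK cells, 6.67, 7.24 and 6.83 in promyelocytes, 6.43, 5.92 and 6.25 in myelocytes, and 6.36, 6.44 and 6.15 in granulocytes. The LSK arrays lay above all others, and the promyelocyte arrays lay above those of myelocytes and granulocytes. Myelocytes were 2.49-fold below LSK cells (log2 difference -1.32 ± 0.18, limma adjusted p = 1.88e-05) and granulocytes 2.29-fold below (-1.20 ± 0.18, limma adjusted p = 3.14e-05). The decline was spread over 2 steps of under 2-fold each, -0.61 to promyelocytes and -0.71 to myelocytes, with limma adjusted p values of 0.0344 and 0.00461. The first of these did not pass when any 1 of LSK arrays 1 and 2 and promyelocyte arrays 1 and 3 was left out, at limma adjusted p values of 0.0774 to 0.144. Granulocytes and myelocytes did not differ beyond their spread (0.12, 95% interval -0.26 to 0.50). Where the arrays were centered on their 75th percentile, the granulocyte difference from LSK cells was -0.98.

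Socs1, the inhibitor that binds the JAK kinase domain and limits interferon responses, changed little. Its levels were 5.11, 5.36 and 5.01 in LSK cells, 5.47, 5.32 and 5.60 in promyelocytes, 5.87, 5.36 and 5.59 in myelocytes, and 5.73, 5.71 and 5.45 in granulocytes (log2). The F test did not pass (adjusted p = 0.0651), and no neighboring stages differed beyond their spread. Granulocytes were higher than LSK cells by 0.47 ± 0.16, which is 1.39-fold, with a limma adjusted p of 0.0227 and arrays that did not overlap. It did not pass when any 1 of LSK arrays 1 and 3 and granulocyte arrays 1 and 2 was left out, at limma adjusted p values of 0.0619 to 0.0871. Myelocytes were higher than LSK cells by 0.45 ± 0.16 (1.36-fold, limma adjusted p = 0.0386), and those arrays did not overlap either. That difference did not pass without LSK array 1 or 3 or without myelocyte array 1 or 3, at limma adjusted p values of 0.0786 to 0.190.

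**Figure D2:**
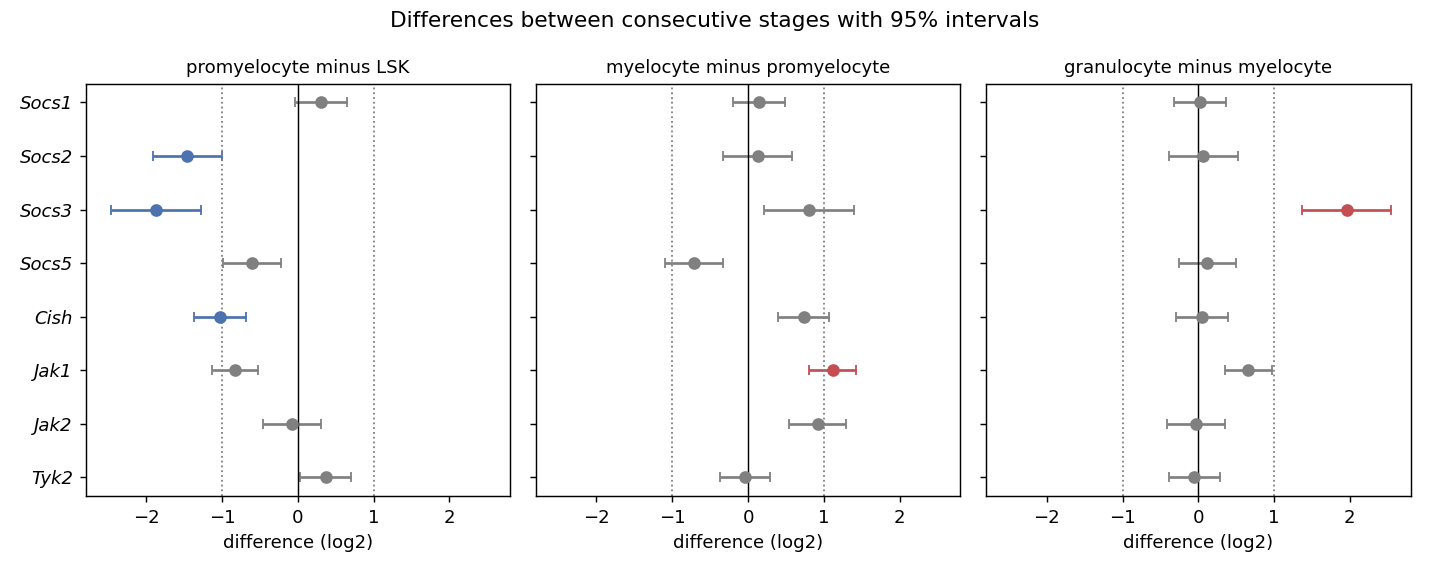
Log2 differences of the 8 genes at each of the 3 consecutive steps, with 95% intervals from limma; blue marks a called fall and red a called rise, gray marks differences that were not called, and dotted lines mark 2-fold. The called falls from LSK cells to promyelocytes are in SOCS genes, and Jak1 is lower there too, by under 2-fold (-0.83, limma adjusted p = 0.00116). The called rise to myelocytes is Jak1, and the called rise to granulocytes is Socs3.

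Jak1, the kinase shared by the gp130, interferon and common gamma chain receptors, was lowest in promyelocytes and rose to myelocytes. Its log2 levels were 10.10, 10.23 and 10.32 in LSK cells, 9.43, 9.60 and 9.14 in promyelocytes, 10.65, 10.48 and 10.39 in myelocytes, and 11.15, 11.11 and 11.23 in granulocytes. No stages overlapped, and every promyelocyte array lay below every other array. The level rose by 1.12 ± 0.14 from promyelocytes to myelocytes, 2.17-fold (limma adjusted p = 1.3e-05), and granulocytes were 3.42-fold above promyelocytes (limma adjusted p = 3.93e-08). Without promyelocyte array 3, the lowest, the first of these was 0.99 and just under 2-fold. Other differences passed the adjusted p at less than 2-fold: promyelocytes were lower than LSK cells by a log2 difference of -0.83 (adjusted p = 0.00116), granulocytes were higher than myelocytes by 0.66 (adjusted p = 0.00329), and granulocytes were higher than LSK cells by 0.95 (adjusted p = 4.01e-05), all by limma. Myelocytes and LSK cells were 0.29 apart, with an interval of -0.02 to 0.59.

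Jak2, the kinase of the erythropoietin, thrombopoietin and granulocyte-macrophage colony-stimulating factor receptors, had 2 plateaus. Its log2 levels were 8.71, 8.25 and 8.39 in LSK cells and 8.44, 8.34 and 8.35 in promyelocytes, then 9.69, 9.20 and 9.00 in myelocytes and 9.14, 9.24 and 9.42 in granulocytes. The 6 arrays of the later stages lay above the 6 arrays of the earlier ones. Myelocytes were higher than promyelocytes by 0.92 ± 0.18 on the log2 scale, 1.89-fold, with a limma adjusted p of 0.000583. No comparison of Jak2 reached 2-fold with all arrays and the deposited values. Without myelocyte array 3 the difference of myelocytes from promyelocytes was 1.07, past 2-fold. Where the arrays were centered on their 75th percentile, granulocytes were above promyelocytes by 1.11 and above LSK cells by 1.03. LSK cells and promyelocytes differed by 0.08 in size (95% interval of the difference -0.45 to 0.30), and myelocytes and granulocytes by 0.03 in size (-0.41 to 0.35).

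Tyk2, which works beside Jak1 at type I interferon and interleukin 10 receptors and beside Jak2 at the interleukin 12 receptor, did not pass the F test (adjusted p = 0.181) or any comparison. Its log2 levels were 6.63, 6.87 and 6.83 in LSK cells, 7.27, 7.22 and 6.94 in promyelocytes, 7.40, 7.05 and 6.86 in myelocytes, and 7.05, 7.01 and 7.10 in granulocytes. The largest stage difference was 0.37 ± 0.16 between promyelocytes and LSK cells (95% interval 0.03 to 0.70, limma adjusted p = 0.152).

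Within the myelocyte group, Jak1, Jak2, Tyk2, Socs3 and Cish ran in the same order as the basophil and mast cell markers, highest on array 1 and lowest on array 3. Socs1, Socs2 and Socs5 were lowest on array 2. The share of all genes that ran from array 1 down to array 3 was not counted, so that order is not read as particular to these genes. The monocyte and macrophage marker mean had that order too, at 8.28, 7.67 and 6.71. Without myelocyte array 1 the difference of myelocytes from promyelocytes was 1.05 ± 0.16 for Jak1 (limma adjusted p = 0.000125) and 0.72 ± 0.17 for Jak2 (limma adjusted p = 0.00363), and it was 0.69 ± 0.31 for Socs3 (limma adjusted p = 0.116) and 0.70 ± 0.19 for Cish (limma adjusted p = 0.00853). In granulocytes 3 of the 6 basophil and mast cell markers were dim and the mean of the list was 4.58 to 4.94. The monocyte and macrophage marker mean there was 7.51, 7.63 and 7.54, and the levels of Jak1 and Jak2 were at least 11.11 and 9.14. The part of such cells in the levels of these genes was not tested.

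The order of the levels differed between genes. Socs3 and Jak1 were highest in granulocytes and lowest in promyelocytes, Cish was highest in LSK cells and lowest in promyelocytes, Socs2 was highest in LSK cells, Socs5 was highest in LSK cells and lowest in myelocytes, and Jak2 was highest in myelocytes, which did not differ from granulocytes beyond their spread. For Socs2 the order of the 3 later stages is not read, since all were dim. By Pearson's r over the 12 arrays, among 13315 genes above the dim level in at least 1 stage, the genes most like Socs3 were Fos (0.970), Ppp1r16b (0.953) and Dusp1 (0.953). Those most like Jak1 were Irf7 (0.992), Tbc1d10c (0.990) and Pip4k2a (0.989). Socs5 was most like Cabcoco1 (0.971), Armcx1 (0.968) and Ptprcap (0.966), Socs2 most like Ctxn1 (0.977), Bcl9l (0.972) and Efcc1 (0.965), and Cish most like Aff4 (0.928), Ccl5 (0.927) and Ncoa2 (0.925). These values describe 12 arrays that fall into 4 stages, so each r mostly reflects 4 stage means.

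Within stages, Socs3 and Fos ran alike on some arrays and not on others. Fos had log2 levels of 10.98, 11.19 and 9.29 on LSK arrays 1 to 3, so that array 3 was the low one for both genes, and promyelocyte array 3 was the high one of its group for both, at 9.13 for Fos against 8.67 and 8.41. In myelocytes the order was the opposite, with Fos at 9.31, 9.55 and 9.80 where Socs3 was at 6.17, 5.89 and 5.74. Immediate early genes, which respond to stimulation within minutes and can respond to the handling of cells, were a list of 17: 10 fell and 0 rose from LSK cells to promyelocytes, 7 rose to myelocytes and 6 rose to granulocytes, with 0 falling at those steps. Their mean was 9.29, 9.24 and 7.90 on the LSK arrays, 7.20, 7.21 and 8.01 in promyelocytes, 8.72, 8.52 and 8.65 in myelocytes, and 9.36, 9.45 and 9.53 in granulocytes (log2). Their part in the course of Socs3 was not tested.

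**Figure D3:**
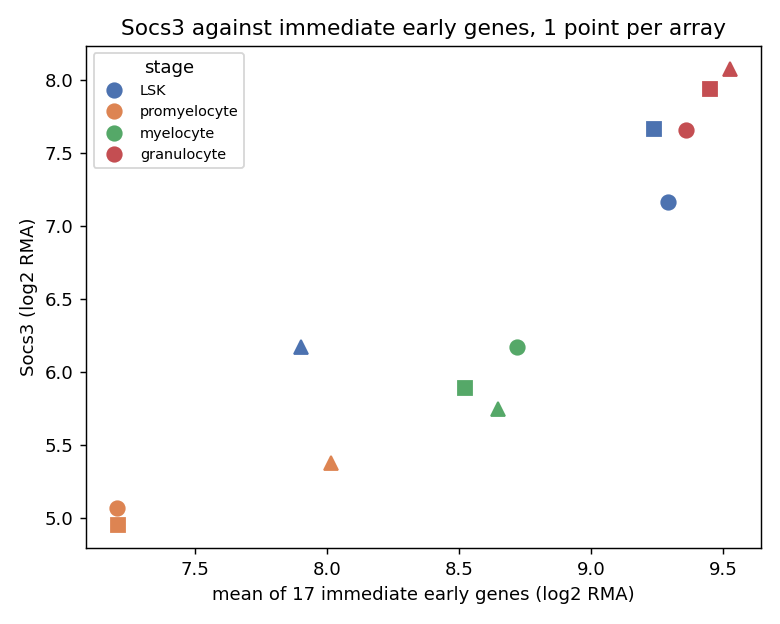
Log2 RMA level of Socs3 (y axis) against the mean log2 level of 17 immediate early genes (x axis), 1 point for each of the 12 arrays; colors mark the stage, and circles, squares and triangles mark arrays 1, 2 and 3. LSK array 3 (blue triangle, 7.90 on the x axis and 6.17 on the y axis) lies away from the other LSK arrays on both axes, and the granulocyte arrays are at the upper right.

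The list of 15 interferon response genes, which act downstream of Jak1 and Tyk2, also had its lowest mean in promyelocytes, at 5.52, 5.75 and 5.41, against 6.35, 6.30 and 6.62 in LSK cells, 6.31, 6.49 and 6.20 in myelocytes and 6.95, 7.35 and 7.08 in granulocytes (log2). From LSK cells to promyelocytes 5 fell and 0 rose, among them the viral RNA sensor Ddx58 (log2 difference -2.08 ± 0.17), the interferon regulator Irf7 (-1.97 ± 0.22) and Oas2 (-1.95 ± 0.23). From promyelocytes to myelocytes 6 rose, led by Oas2 (3.22 ± 0.23), Ddx58 (2.63 ± 0.17) and Irf7 (2.59 ± 0.22), and 2 fell, Gbp3 (-3.11 ± 0.16) and Bst2 (-1.29 ± 0.18). From myelocytes to granulocytes 5 rose, led by Oasl2 (2.70 ± 0.23), Rsad2 (2.47 ± 0.15) and Ifit3 (2.17 ± 0.29), and 0 fell.

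Among the 6 STAT factors measured, 1 fell from LSK cells to promyelocytes, Stat4 (-1.15 ± 0.20), the factor of interleukin 12 signaling. To myelocytes 3 rose: Stat4 (1.71 ± 0.20), Stat3 (1.28 ± 0.15), which carries the signal of granulocyte colony-stimulating factor and interleukin 6, and Stat6 (1.03 ± 0.13), which carries that of interleukin 4. No STAT factor was called from myelocytes to granulocytes. Granulocytes had 5 of 6 above promyelocytes and 0 below.

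The 28 measured receptor chains that carry JAK kinases were mostly not called at a step: 7 rose, 1 fell and 20 did not pass to myelocytes, and 3 rose, 2 fell and 23 did not pass to granulocytes. Csf3r, the receptor of granulocyte colony-stimulating factor, rose at both steps, by 1.68 ± 0.14 and 1.76 ± 0.14 on the log2 scale. Il7r rose by 1.97 ± 0.38 to myelocytes, and Csf2rb2 by 1.90 ± 0.23. On myelocyte arrays 1 to 3 Il7r was at 6.87, 5.48 and 4.74 and Csf2rb2 at 8.87, 8.11 and 7.85. That is the order of the basophil and mast cell marker mean, and the part of such cells was not tested. Il7r then fell to granulocytes, with a log2 difference of -1.37 ± 0.38. Its means in promyelocytes and granulocytes, 3.72 and 4.32, were dim, so its differences at the consecutive steps are measured against background signal. Il13ra1, a chain of the interleukin 13 receptor, rose by 3.09 ± 0.34 to granulocytes, and Il4ra rose by 1.30 ± 0.16. Il6st, which encodes the gp130 chain that Socs3 binds, went the other way, with log2 differences of -2.38 ± 0.29 to myelocytes and -1.22 ± 0.29 to granulocytes. From LSK cells to promyelocytes 1 rose, Csf2rb (1.09 ± 0.20), the shared chain of the interleukin 3 and granulocyte-macrophage colony-stimulating factor receptors, and 2 fell, Il7r (-2.09 ± 0.38) and Il27ra (-1.28 ± 0.20).

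Other inhibitors of the pathway, 13 genes for phosphatases, PIAS proteins, adaptors and the protease Usp18, had 0 calls from LSK cells to promyelocytes. To myelocytes 5 rose and 0 fell, led by Ptprc (2.22 ± 0.14), the CD45 phosphatase, Pias3 (1.64 ± 0.15), an inhibitor of Stat3, and Ptpn6 (1.34 ± 0.15), the SHP-1 phosphatase. To granulocytes 1 rose, Usp18 (1.25 ± 0.20), which restrains type I interferon signaling. Of the 6 measured genes of the ubiquitin ligase that the SOCS box recruits, 0 were called at the first 2 steps and 1 fell to granulocytes, Cul5 (-1.29 ± 0.21), its scaffold. Rnf7, its RING subunit, was lower in granulocytes than in promyelocytes by a log2 difference of -1.20 ± 0.20. The other SOCS genes, Socs4, Socs6 and Socs7, were not called at any consecutive step, and granulocytes were below promyelocytes for Socs6 (-1.17 ± 0.14).

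STAT target genes, a list of 13 that leaves out the SOCS genes, had 0 calls from LSK cells to promyelocytes, with a median log2 difference of -0.43 beside 0.04 over all genes. Pim1, a survival kinase, was just short of 2-fold there (-0.99 ± 0.20, limma adjusted p = 0.00388). To myelocytes 4 rose and 3 fell: the largest rises were in Bcl6 (3.11 ± 0.14) and Osm (2.89 ± 0.23), and the falls were in Myc (-4.41 ± 0.26), Ccnd2 (-3.29 ± 0.22) and Ccnd1 (-1.16 ± 0.17), which drive cell growth and division. To granulocytes 4 rose, with Bcl3 (1.70 ± 0.20), Pim1 (1.62 ± 0.20) and Bcl6 (1.14 ± 0.14) the largest, and 1 fell, Myc (-1.15 ± 0.26).

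**Figure D4:**
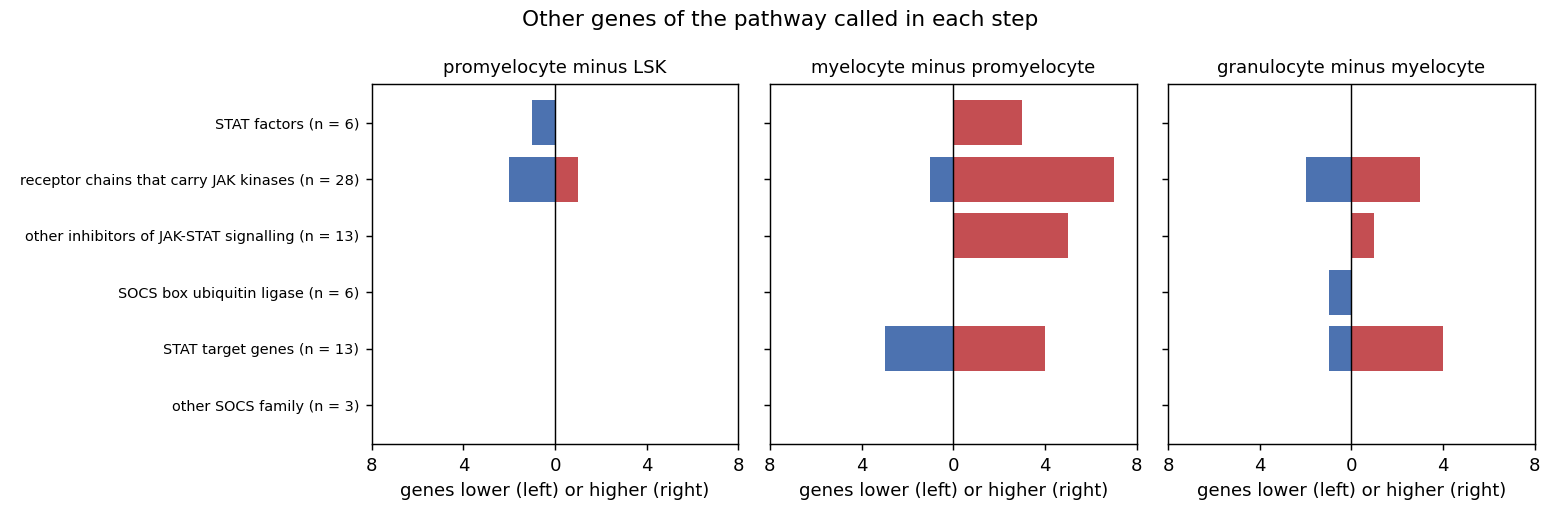
Number of genes of 6 lists of the JAK-STAT pathway that were lower (blue, left of 0) or higher (red, right of 0) at each consecutive step, counting called genes only; n is the number of measured genes of a list. At the step from promyelocytes to myelocytes, which also had the most called genes of the 3 steps over the whole array, 7 of 28 receptor chains and 5 of 13 other inhibitors rose.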

How the data were processed

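The authors hybridized 300 ng of total RNA from each sample to a 1-color array and processed the arrays with justRMA (background correction, quantile normalization of probes, then median polish within probe sets). The deposited log2 values were used without further normalization. Of 34760 rows, 21640 carried 1 gene symbol, and the row with the highest mean was used for each of 19937 genes. limma 3.58.1 in R 4.3.3 fitted 4 group means to the 12 arrays (8 residual and 7.02 prior degrees of freedom), with Benjamini-Hochberg adjustment over all genes. The code recovered most of the largest known changes when tested on simulated data, and changes as small as 2-fold were not simulated. Precision is limited by the number of arrays (median within-group SD 0.21).

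The genes and lists were chosen with earlier results of these data known. All 9 genes are named, with up to 3 of the largest called differences for each list and comparison and the 3 most similar genes (predicted models left out) for each gene with an F test passed and a range of at least 1. Arrays of the same number deviated together with r over 0.1 in all 3 pairs only between myelocytes and promyelocytes (r from 0.12 to 0.20). Between granulocytes and promyelocytes r was positive in all 3 pairs as well, from 0.07 to 0.11. Promoters came from RefSeq. Alternatives covered centering, quantile normalization, a filter on dim genes, the row used, thresholds, the fit and each array left out; the gene's other row was added after the data were seen.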

Additional observations from a re-analysis of the deposited data

How the results depend on the processing

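The counts of called genes among the 8 were 3, 1, 1, 3, 2 and 2 for the 3 consecutive steps in order, then myelocytes minus LSK cells, granulocytes minus promyelocytes, and last granulocytes minus LSK cells. With the replicate number as a block they were again 3, 1, 1, 3, 2 and 2, 6 genes again passed the F test, and no call changed. Centered on the 75th percentile, granulocytes minus promyelocytes had 4 called, all higher (Socs3, Jak1, Cish and Jak2) and 0 lower. Of all 19937 genes, 2566 were called higher and 2744 lower under that setting. Granulocytes minus LSK cells had 4 called, 3 higher (Socs3, Jak1 and Jak2) and 1 lower (Socs2), beside 2440 higher and 2781 lower over all genes. That centering moved the median over all genes to 0.36 and 0.39 there, from 0.13 and 0.17, and to 0.25 from 0.09 for granulocytes minus myelocytes. It moved the share of higher genes among all called to 48.3%, 46.7% and 41.7%, from 38.4%, 36.7% and 28.3%, and centering on the median moved it to 46.8% from 36.9% for promyelocytes minus LSK cells. With the mean of a gene's rows, myelocytes minus LSK cells and granulocytes minus LSK cells had 1 called each. With the adjusted p and no fold limit the counts were 5, 5, 2, 5, 5 and 6. With each array left out the counts ranged from 2 to 3, 0 to 2, 1 to 1, 2 to 3, 2 to 2 and 1 to 3, and 6 to 7 genes passed the F test. For myelocytes minus promyelocytes it was 0 without promyelocyte array 3 and 2 without myelocyte array 3, and for granulocytes minus LSK cells it was 1 without LSK array 3.

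Values that changed sign were all uncalled differences near 0. For promyelocytes minus LSK cells, Jak2 was 0.0043 with arrays centered on the median and ranged from -0.17 to 0.051 with arrays left out. For myelocytes minus promyelocytes, Tyk2 was 0.023 with the 75th percentile and 0.019 with quantile normalization and ranged from -0.19 to 0.082 with arrays left out, and Socs2 ranged from -0.042 to 0.22. For granulocytes minus myelocytes, Jak2 was 0.13 and Tyk2 0.11 with the 75th percentile, and Tyk2 was 0.089 and Socs2 -0.032 with quantile normalization. For granulocytes minus promyelocytes, Tyk2 was 0.13 and 0.11. With arrays left out, granulocytes minus myelocytes ranged from -0.10 to 0.15 for Socs1, -0.010 to 0.11 for Socs2, -0.019 to 0.24 for Socs5, -0.010 to 0.16 for Cish, -0.18 to 0.17 for Jak2 and -0.17 to 0.10 for Tyk2.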
